A study of Mus musculus with 2 samples.

Results

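Etv4-only intronic regions were stretches of the mouse genome that the Etv4 ChIP-seq list held inside introns and that the Etv5 list did not touch. They were chosen by the deposited region lists and their positions: an Etv4 region counted when it overlapped no Etv5 region by 1 bp or more, its midpoint lay over 2 kb from every annotated transcript start, and the midpoint fell inside an annotated gene but in no exon. The rule gave 2348 regions of the 13636 in the Etv4 list, or 17.2%, and of the 21933 in both lists. The Etv5 list held 8297 regions, so a region missing from it can also reflect the shorter list.

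Both libraries came from EpRas cells, EpH4 mouse mammary epithelial cells transformed with H-Ras, after 1 ng/ml TGF-β3 for 1.5 h. One was made with a rabbit polyclonal antibody to Etv4 and the other with a mouse monoclonal antibody to Etv5. There was 1 library per antibody, so no difference between the lists has a replicate check, and the antibody and the library cannot be told apart. The lists hold positions only, so depth is unknown and the cell type could not be checked against expressed markers.

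Etv4 and Etv5 belong to the PEA3 group of ETS factors, which bind DNA with a GGAA core and act downstream of Ras and ERK signalling. ETS factors are known to share regulatory elements with AP-1, the dimer of Fos and Jun proteins, and with Runx proteins. Introns hold many of the enhancers that answer to such signals in epithelial cells.

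The sequences below show how ETS and AP-1 letters lay under these regions. All are from the plus strand of mm10, and capitals mark the ETS letters CAGGAAGT and CCGGAAGT and the AP-1 letters TGACTCA and TGAGTCA on either strand. On the other strand the more frequent ETS letters read ACTTCCTG. The first 6 are among the lowest-numbered regions that held both patterns within 100 bp of each other in their central 300 bp.
Plcl1, chr1:55528960-55529089: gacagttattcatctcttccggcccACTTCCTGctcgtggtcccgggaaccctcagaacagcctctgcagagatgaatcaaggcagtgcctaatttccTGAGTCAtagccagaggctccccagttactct
Gm16201, chr7:139971619-139971755: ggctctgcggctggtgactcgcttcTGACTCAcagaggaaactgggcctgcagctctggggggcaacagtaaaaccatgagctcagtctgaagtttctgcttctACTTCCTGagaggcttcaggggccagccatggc
Fmn2, chr1:174641087-174641245: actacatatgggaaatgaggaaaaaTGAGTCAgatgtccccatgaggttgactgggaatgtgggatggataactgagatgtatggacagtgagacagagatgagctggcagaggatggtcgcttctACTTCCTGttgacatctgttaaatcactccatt
Eml1, chr12:108393829-108393941: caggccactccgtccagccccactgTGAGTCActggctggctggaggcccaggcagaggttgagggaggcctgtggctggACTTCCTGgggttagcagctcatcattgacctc
Ankrd11, chr8:122990113-122990193: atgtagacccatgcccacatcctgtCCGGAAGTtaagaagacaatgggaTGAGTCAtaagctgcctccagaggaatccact
Gm47729, chr10:16589559-16589686: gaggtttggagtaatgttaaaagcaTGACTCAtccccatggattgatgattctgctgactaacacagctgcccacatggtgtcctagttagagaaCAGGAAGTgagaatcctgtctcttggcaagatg
The region in Plcl1, which codes for a phospholipase C-like protein, lay in the gene's first intron, 30.5 kb from the nearest transcript start, with 65 bp between the ETS and the AP-1 letters. In Eml1, the gene of a microtubule-binding protein, 48 bp separated them. Ankrd11, which codes for a chromatin regulator, held the only one of the 6 with the CCGGAAGT form, 16 bp from TGAGTCA. Gm20388 is a predicted model that runs across Ankrd11 and many other genes.

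The next 2 sequences are among the lowest-numbered members with ETS letters and no AP-1 letters in the central 300 bp.
Gm32585, chr5:125268400-125268457: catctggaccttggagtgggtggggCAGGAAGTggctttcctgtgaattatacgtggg
Lrig1, chr6:94646659-94646716: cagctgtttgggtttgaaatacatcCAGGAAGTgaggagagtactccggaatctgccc
Lrig1 codes for a membrane protein that restrains ErbB receptors. Its region was 890 bp long and lay 98.4 kb from the nearest Etv5 region.

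The following 3 are members in which the patterns touched or nearly touched. They were picked after the values were seen.
Ephb1, chr9:102300805-102300868: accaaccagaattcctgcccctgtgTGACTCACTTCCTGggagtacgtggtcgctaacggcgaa
Cdh23, chr10:60573553-60573616: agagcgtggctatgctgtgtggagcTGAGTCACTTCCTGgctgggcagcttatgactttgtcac
Chst8, chr7:34806520-34806588: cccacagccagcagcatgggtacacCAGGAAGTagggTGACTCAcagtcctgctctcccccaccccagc
In Ephb1, an ephrin receptor gene, and in Cdh23, a cadherin gene, 1 base was shared by the AP-1 and the ETS letters. In Chst8, which codes for a sulfotransferase, 4 bp lay between them.

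The regions were short. Their median length was 516.5 bp (quartiles 382 and 604.2 bp), against 741.5 bp for the 1704 shared intronic regions, which are Etv4 regions in introns that did overlap an Etv5 region. Together the members covered 1.26 Mb. A length of exactly 598 bp occurred in 114 members, or 4.86%, and in 63 shared regions, or 3.70%. The distance to the nearest transcript start had a median of 10.4 kb and quartiles of 5.22 and 22.6 kb. Members were taken mostly from the later part of the list: of the intronic Etv4 regions, 19.0% were members in the first quintile by region number and 83.2% in the last. The criterion behind the region number is not given in the sources used here.

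At the limits of the rule, the member nearest to a transcript start lay at 2008 bp and the nearest region left out at 1994 bp. From 2 to 2.5 kb there were 107 members, and from 1.5 to 2 kb there were 135 Etv4-only intronic regions that the rule left out. The smallest gap between a member and an Etv5 region was 9 bp, and the smallest overlap of a shared intronic region was 4 bp. Within 1 kb of an Etv5 region lay 167 members, or 7.11%, whereas 67.1% lay over 10 kb away.

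AP-1 letters had the largest excess over the surrounding introns of the ETS, AP-1, RUNX and TEAD letters searched. The background was 187496 intronic windows of 500 bp on a fixed grid, over 2 kb from transcript starts and outside all regions. TGACTCA or TGAGTCA occurred in 1097 of the 2348 member windows, or 46.7% (95% interval 44.7 to 48.8%), against 7.96% of the grid windows. With the grid weighted to the members' GC content the share was 8.42%, a 5.55-fold difference. In windows 2 kb to either side of the members it was 8.72%.

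The ETS letters CAGGAAGT or CCGGAAGT occurred in 195 members, or 8.30% (7.22 to 9.50%), against 3.64% of grid windows and 4.29% at equal GC content. The same letters written backwards, TGAAGGAC or TGAAGGCC, were found in 4.05% of members and in 4.24% of the GC-weighted grid. The GGAA core with A or C before it and A or G after it was in 81.7% of members, but also in 75.8% of that grid. RUNX letters TGTGGTT or TGTGGTC occurred in 654 members, or 27.9% (26.1 to 29.7%), against 17.5% of grid windows. TEAD letters ACATTCC were in 12.7% of members and 6.70% of grid windows. They and the further patterns in this paragraph were searched after the octamers below had been seen. The E-box CAGGTG of Snail and Zeb repressors was in 29.9% of members (28.0 to 31.7%), which lay above the 27.2% of the grid, below the 34.7% of the GC-weighted grid and near the 31.1% of windows 2 kb away. The letters AACCGGTT or AACCTGTT of Grhl factors, which maintain epithelia, were in 35 members, or 1.49%, against 1.78% of that grid. Intervals for shares are exact 95% binomial intervals, and those for differences are Newcombe intervals. Differences weighted by region number, given below, have intervals from a normal approximation instead. All of these cover counting error only and treat neighbouring regions as independent.

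**Figure D1:**
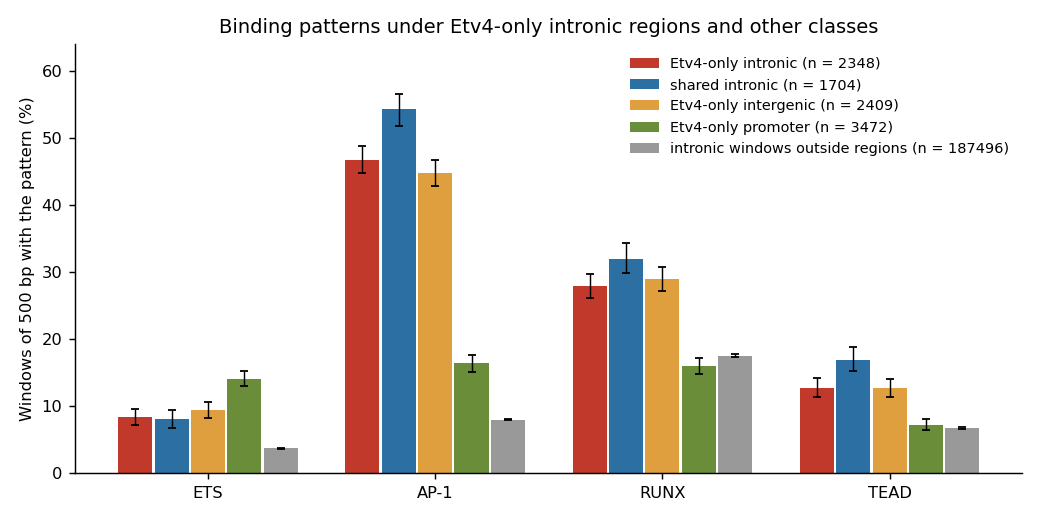
Share of 500-bp windows that hold each pattern on either strand (y axis, percent) in 4 classes of Etv4 regions and in intronic windows outside regions. Bars start at 0 and error bars are exact 95% binomial intervals. Etv4-only intronic regions stand at 46.7% for AP-1 and 8.30% for ETS, and Etv4-only promoter regions at 16.3% and 14.1%.

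The members' profile differed from that of Etv4-only regions at promoters, defined by a midpoint within 2 kb of a transcript start. The ETS share of members was lower than that of those 3472 promoter regions, with a difference of -5.75 percentage points (-7.34 to -4.12). With the GGAA core alone, as defined above, it was -1.48 points (-3.50 to 0.501), an interval that holds 0. Mean GC content was 47.0% in members and 56.8% in the promoter regions. AP-1 letters were 30.4 points more frequent (28.0 to 32.7), with the same sign on 20 of 20 chromosomes. The form of the ETS site also differed. CCGGAAGT made up 24 of the 202 ETS sites in members, or 11.9% (7.76 to 17.2%), and 334 of 535 in promoter regions, or 62.4% (58.2 to 66.6%). Between members and Etv4-only intergenic regions, the difference in AP-1 share was 1.97 points (-0.859 to 4.80) and that in ETS share was -1.03 points (-2.65 to 0.581). The backwards letters differed by 1.26 points (0.232 to 2.32).

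Against the shared intronic regions, members held AP-1 letters less often, in 46.7% against 54.2% of windows, a difference of -7.51 percentage points (-10.6 to -4.39) with the same sign on 15 of 19 chromosomes. Searched over whole regions, which are longer among the shared ones, it was -12.5 points (-15.6 to -9.38), and with the first Etv4 regions by number, as many as the Etv5 list holds, it was -4.14 points (-8.05 to -0.231). The RUNX share differed by -4.13 points (-7.00 to -1.28) and the TEAD share by -4.21 points (-6.47 to -2.0). The ETS share differed by 0.32 points (-1.41 to 2.01). Region numbers differed too, with a median of 3628 in shared regions and 8564 in members. With the shared regions weighted to the members' quintiles of the region number, the AP-1 difference was -3.39 points (-7.32 to 0.533) and the ETS difference was 2.64 points (0.843 to 4.45). So weighted, the RUNX difference was -3.10 points (-6.71 to 0.526) and the TEAD difference -4.38 points (-7.29 to -1.47). That weighting was chosen after seeing the data. Its ETS value rests on few shared regions with ETS letters, 9 of 174 in the fourth quintile and 4 of 132 in the last. A normal approximation is rough at such counts. Within single quintiles, the interval of the AP-1 difference left out 0 in the first alone (-9.36 points, -17.7 to -0.768), and that of the ETS difference in none.

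Among the members themselves, the AP-1 share by quintile of the region number was 45.6%, 53.8%, 52.4%, 46.9% and 37.8%. The highest values were in the second and the third quintile. Median length went from 837.5 bp in the first quintile to 338 bp in the last, so the windows of the last quintile reached beyond most of its regions. By distance from transcript starts, the AP-1 share was 43.6% at 2 to 5 kb (39.4 to 47.9%) and 50.7% beyond 50 kb (43.6 to 57.9%).

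The sites gathered at the middle of the regions. In the central 200 bp, AP-1 sites numbered 1.69 per kb, 7.08 times their density beyond 500 bp from the midpoint, and in shared regions the ratio was 9.95. ETS sites reached 0.219 per kb, or 2.45 times the outer density, whereas the backwards letters gave a ratio of 1.15. RUNX and TEAD sites were 1.96 and 2.66 times as dense in the centre as outside. These ratios are descriptions across regions.

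**Figure D2:**
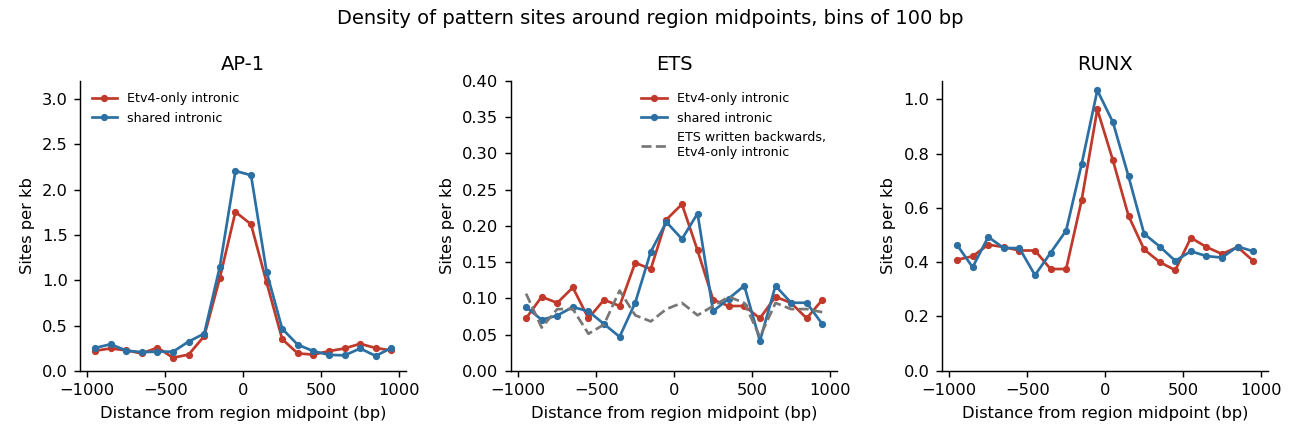
Sites per kb (y axis) in bins of 100 bp by distance from the region midpoint (x axis, bp) for AP-1, ETS and RUNX letters, each panel with its own scale. Solid lines are Etv4-only intronic and shared intronic regions, and the dashed line is the backwards ETS control in Etv4-only intronic regions, whose central density is 1.15 times the outer one.

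A ranking of all octamers was led by the same letters. It covered 3632 octamers present in the central 200 bp of 30 or more members, ranked by their frequency against windows 2 kb away. The leading ones were GTGAGTCA (209 members, 13.4-fold) and ATGACTCA (205 members, 13.2-fold). Among the top 20, 13 held at least 6 letters of the AP-1 pattern, and 18 did so once one-letter variants of its 7 letters were counted. The best octamer with the full ETS pattern ranked 136, while AGGAAGTG, which holds 7 of its 8 letters, ranked 57 (106 members, 3.29-fold). The best with a RUNX core ranked 89 and the best with a TEAD core 42.

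ETS and AP-1 letters met in 107 members, or 4.56%, against 0.321% of grid windows. AP-1 letters were in 54.9% of the 195 members with ETS letters (47.6 to 62%) and in 46.0% of the 2153 without them (43.9 to 48.1%), intervals that overlap slightly. The gap between the nearest pair had a median of 90 bp. Close pairs such as those in Ephb1 and Cdh23 were few: 14 members had a gap of 20 bp or less. That was 0.596% of all members, against 0.04% of all grid windows. Among windows with both patterns, it was 13.1% of members against 12.5% of the grid. None of ETS, AP-1 and RUNX letters was found in 815 members, or 34.7%, compared with 73.2% of grid windows. At the other end, 237 members, or 10.1%, held 2 or more AP-1 sites, against 14.9% of shared regions and 0.357% of the grid.

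Members lay in first introns more often than the introns as such. Of 1763 members that fell in an intron of the longest spliced coding transcript of a protein-coding gene, 647 were in the first one, or 36.7% (34.4 to 39.0%). The grid gave 24.8%, and 26.2% with the members' distances from transcript starts. The member share was above the grid's at each distance up to 50 kb: 45.4% against 31.4% at 2 to 5 kb, 41.4% against 28.4% at 5 to 10 kb, 38% against 25.5% at 10 to 20 kb, and 27.4% against 22.6% at 20 to 50 kb. Beyond 50 kb the member share of 19.5% had an interval of 13.7 to 26.5%, which held the grid's 16.7%. Shared intronic regions gave 34.2%, a difference of 2.49 points with an interval of -0.979 to 5.92.

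A protein-coding gene held 1961 of the members, or 83.5%. Of 21951 such genes, 1301 held at least 1 member, which is 5.93% of all genes. Of these, 921 held 1 member and 66 held 4 or more. Host genes were long, with a median of 102 kb against 17.4 kb for all genes, a difference that the rule itself favours, since it asks for intron beyond 2 kb of a transcript start. A shared intronic region was also present in 430 of the 1301, or 33.1%, which is 43.7% of the 984 genes with a shared intronic region. Over all introns eligible under the rule there were 2.48 members per Mb, with 4.30 per Mb on chromosome 15, 3.76 on chromosome 11 and 0.54 on chromosome X.

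Pmepa1 held the most members of any gene but Gm20388, 19 of them in 52.1 kb. It codes for a membrane protein that is induced by TGF-β and restrains Smad signalling. The gene lies on the minus strand at chr2:173224458-173276533, and its members ran from 4.17 to 46.7 kb downstream of its start, with a median step of 1.51 kb. Their lengths spanned 299 to 1231 bp and their region numbers 2816 to 13615. Between them lay 3 shared regions of 2416, 2944 and 4545 bp. Etv4 regions covered 52.2% of the gene and Etv5 regions 6.82%. Only 3 of the 19 member windows held AP-1 letters and 1 held ETS letters. The sequences of 2 of those AP-1 sites follow, as the exceptions in this gene.
Pmepa1, chr2:173250065-173250121: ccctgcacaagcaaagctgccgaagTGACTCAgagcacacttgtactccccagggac
Pmepa1, chr2:173268890-173268946: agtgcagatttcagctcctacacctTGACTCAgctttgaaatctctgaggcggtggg

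Smad7, the inhibitory Smad that shuts off TGF-β receptors, held 6 members in 28.4 kb, with AP-1 letters in none of their windows. Etv4 regions covered 22.1% of it and Etv5 regions 2.10%. Lurap1l held 11 members, 1 with AP-1 letters, and was covered to 25.2% by Etv4 and 11.96% by Etv5 regions. Myh9, the heavy chain of nonmuscle myosin, held 7 members and Ahnak, a large scaffold protein, held 6, with AP-1 letters in 1 and in 0. The pattern of these genes was not shared by all hosts with many members. Ltbp1, which codes for a matrix protein that stores latent TGF-β, held 8 members, and 6 of them had AP-1 letters. They lay from 107 to 272 kb downstream of the start of this gene of 387 kb. Ldlrad4, a gene related to Pmepa1 that also restrains Smad activation, held 7, of which 4 had AP-1 letters. Sept9, a septin gene, and Nsmce2, which codes for a SUMO ligase, held 9 each, with AP-1 letters in 4 of the 9 in both. Fgf2, the gene of a fibroblast growth factor, held 6 members within its first 22.3 kb, 2 with AP-1 letters. Tns3, Dst and Nav2, which code for proteins of adhesions and the cytoskeleton, held 7 each, with AP-1 letters in 1, 2 and 4. Mb, the myoglobin gene, and Plekhg3, which codes for a guanine nucleotide exchange factor, held 4 each and had AP-1 letters in 2 and 1 of them.

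**Figure D3:**
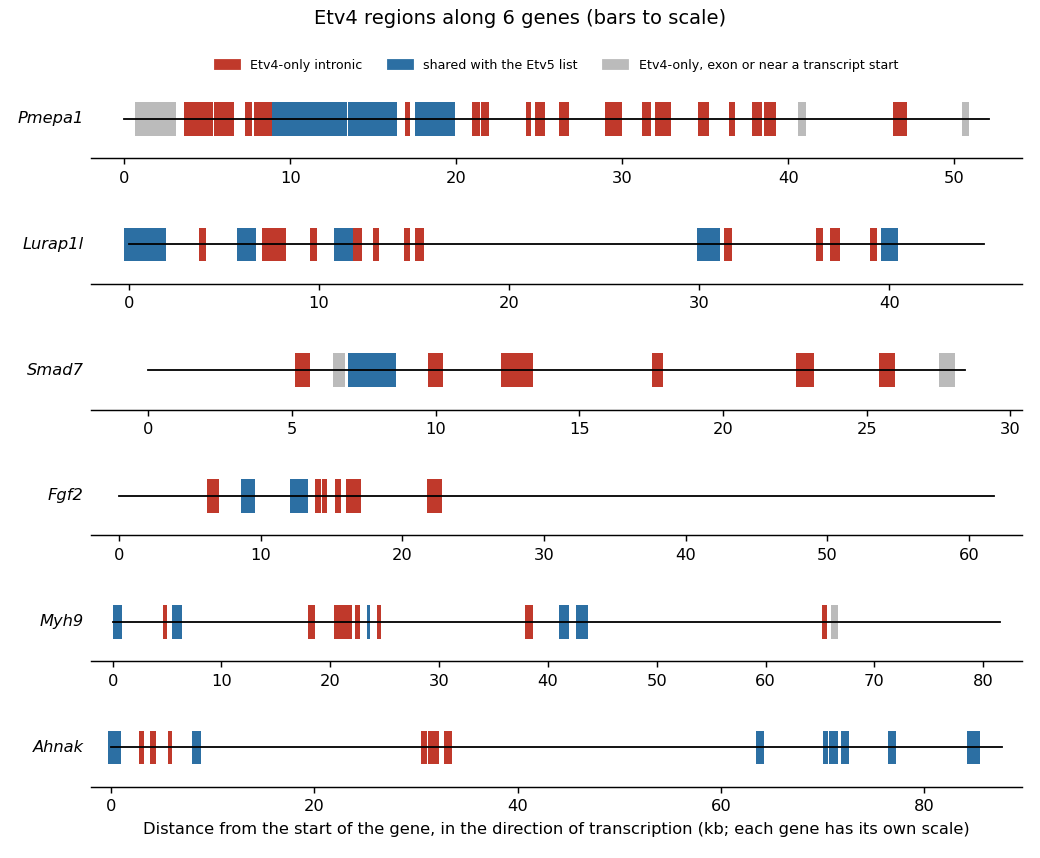
Etv4 regions along 6 of the genes with the most members per 100 kb, by distance from the gene start in the direction of transcription (x axis, kb, with a scale for each gene), with bars drawn to length. In Pmepa1, 19 Etv4-only intronic regions lie on both sides of 3 long shared regions, and in Smad7, 6 lie around 1 shared region.

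Across all host genes, the AP-1 share of the members moved with how much of the gene lay under Etv4 regions. This was noticed after seeing the data, and Gm20388 was left out as a host. Regions had been called without an input library, so coverage is the length of gene body called and not shown to be bound, and the part of the calling was not tested. The share was 51.1% of 1196 members (48.2 to 54.0%) where Etv4 regions covered under 2% of the gene and 47.0% of 468 members at 2 to 5%. It was 42.2% of 147 at 5 to 10%, 29.2% of 65 at 10 to 20%, and 13.4% of 67 (6.33 to 24.0%) at 20% or more. From the least to the most covered hosts it dropped by 37.7 points (interval of the difference -44.5 to -27.1). The last class rests on few genes: of its 67 members, 19 lay in Pmepa1, 11 in Lurap1l and 6 in Smad7. Members of the same gene were counted as independent, so the interval is too narrow if they are alike. Without Pmepa1 the last share was 12.5% of 48 members. Shared intronic regions in genes of the same classes did not follow: their AP-1 share was 53.1%, 56.8%, 61.9%, 57.8% and 44.4% over the same 5 classes. The difference of members from shared regions was -1.98 points in the first class (-6.43 to 2.49), -9.79 points in the next (-16.4 to -3.00) and -31.0 points in the most covered one (-53.7 to -8.68), where 18 shared regions were left. The median GC content was 46.0%, 48.6%, 50.6%, 50.8% and 50.0% over the 5 classes, or 47.5% in the last without Pmepa1, and its part was not tested. The ETS share was 8.19% in the first class and 4.48% in the last (difference -3.72 points, -7.11 to 4.29). The RUNX share was 30.02%, 25.4%, 23.8%, 18.5% and 19.4% over the 5 classes, with a difference of -10.6 points between the last and the first (-18.8 to 0.689).

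**Figure D4:**
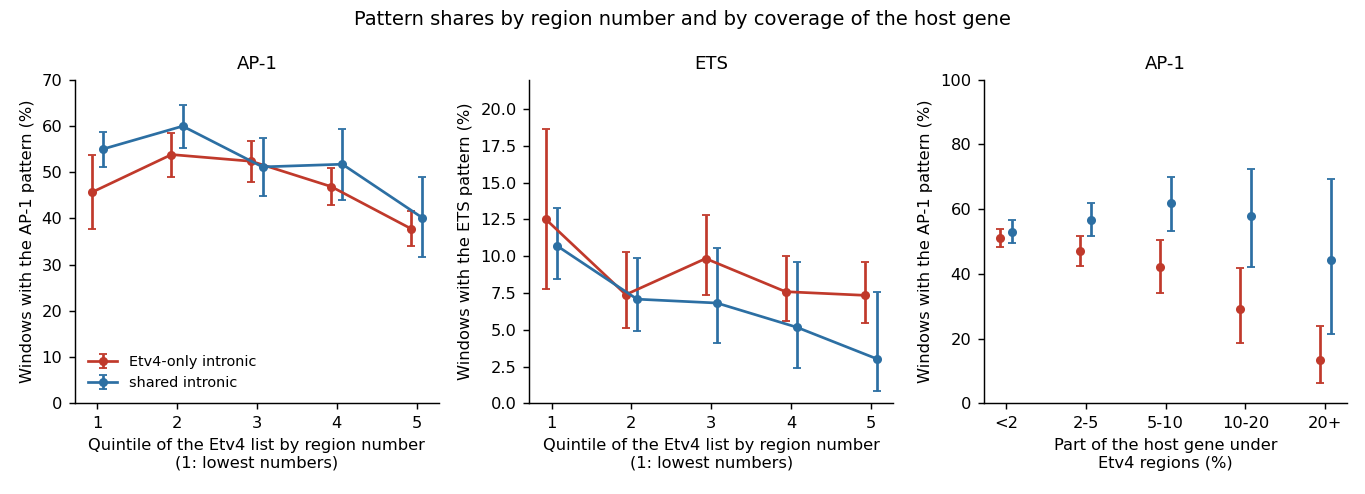
Share of 500-bp windows with AP-1 or ETS letters (y axes, percent) in Etv4-only intronic and shared intronic regions, by quintile of the Etv4 list (left and middle) and by the percentage of the host gene under Etv4 regions (right). Error bars are exact 95% binomial intervals. On the right, the Etv4-only intronic share goes from 51.1% to 13.4% while the shared intronic share stays between 44.4% and 61.9%.

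The most covered hosts of 5 kb or longer were few. Of 1297 such genes with a member, 22 had 20% or more of their length under Etv4 regions and 0 under Etv5 regions. In Ptgs2, the gene of cyclooxygenase-2, 4 Etv4 regions covered 76.9%, 2 of them members, and no Etv5 region lay in the gene. Klf6, an immediate early transcription factor gene, was covered to 31.2% and Vegfa, the gene of the angiogenic growth factor, to 27.9%. The others included Hspa8, a constitutive chaperone gene, at 41.6%, and Tagln2, the gene of an actin-binding protein, at 29.5%. AP-1 letters were in 0 of 2 member windows in Ptgs2, 0 of 1 each in Klf6, Hspa8 and Tagln2, and 1 of 2 in Vegfa. They were also in 1 of 2 in Sdc4 and in the single members of S100a6 and Hmga1.

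Members were also counted in the genes of 10 lists, written with earlier results of these data known. In each list but the long neuronal one, members were denser in the eligible introns than over all protein-coding genes, where they numbered 2.44 per Mb. The same held for shared intronic regions, at 2.81 to 17.4 per Mb in those lists and 1.74 over all genes. Over all protein-coding genes, 5.93% held a member, at a median gene length of 17.4 kb. List genes had longer medians, except for 11.7 kb in the NF-κB and inflammatory list, and longer genes hold members more readily. The TGF-β and Smad list had members in 5 of 28 genes, at 11.99 per Mb, against 4.57 per Mb for shared regions. Beside Ltbp1 and Smad7 it named Smad3, a receptor-activated Smad, with 5 members in 111 kb. In the EMT and mesenchymal list 11 of 29 genes, or 37.9%, held members, at 9.73 per Mb. There were 2 each in Mmp2, a gelatinase gene, and Col4a2, a basement membrane collagen gene. The integrin and laminin list had 12 of 27 genes with a member and 14.7 members per Mb, below its 17.4 shared regions per Mb. Its leading genes were Itgb6, which codes for a subunit of an integrin that activates latent TGF-β, with 4, Itgb3 with 3, and Sdc4, a syndecan gene, with 2. Among actin cytoskeleton regulators 17 of 40 genes held members, at 6.13 per Mb, led by Myh9 and by Actn1, an α-actinin gene with 6. Actn4 held 2.

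The genes that code for AP-1, ETS and RUNX factors held members in 6 of 34 cases, at 9.96 per Mb. Runx1 held 6, Runx2 held 4 and Elk3, an ETS repressor and activator under ERK control, held 3. In the ERK list, with 6 of 32 genes and 5.62 members per Mb, Dusp10 and Egfr held 2 each and Dusp4, which codes for an ERK phosphatase, held 1. The NF-κB and inflammatory list reached 21.9 members per Mb in 5 of 28 genes, on 0.366 Mb of eligible intron. Its leading genes were Ptges, which codes for a prostaglandin E synthase, with 3, Ptgs2 with 2, and Nfkbiz, a nuclear IκB gene, with 1. The Yap and Tead list had 5 of 24 genes and 7.73 members per Mb, below its 8.43 shared regions per Mb, with 4 in Vgll4, whose product competes with Yap for Tead, 3 in Tead1 and 2 in Amotl1. Of the epithelial junction genes 7 of 35 held members, at 4.98 per Mb. Cdh1, the E-cadherin gene, held 2, both with AP-1 letters, Magi1, a tight junction scaffold gene, held 3, and Pard3, a polarity gene, held 2.

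Long genes of neuronal function, listed as genes not used by mammary epithelium, served as a contrast. Members were found in 11 of 31 of them, or 35.5%, a share near that of the EMT and mesenchymal list, but at 0.375 per Mb. Their median length was 1135 kb. Csmd3 held 2 and Grm7, a glutamate receptor gene, held 1. No list was tested, and single genes weighed heavily: Ltbp1 held 8 and Smad7 held 6 of the 21 members of the TGF-β and Smad list.

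**Figure D5:**
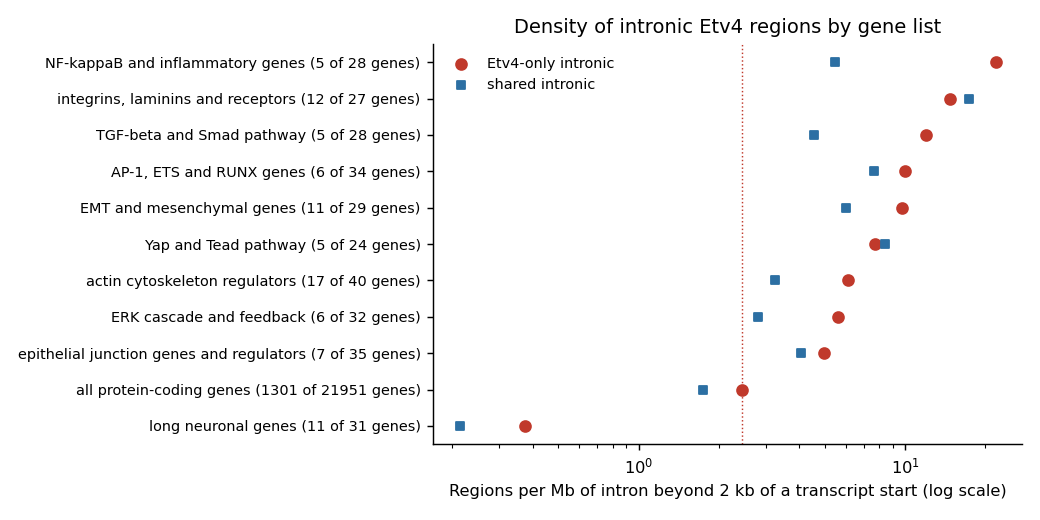
Etv4-only intronic and shared intronic regions per Mb of intron beyond 2 kb of a transcript start (x axis, log scale) for 10 gene lists and for all protein-coding genes, with the number of genes that held an Etv4-only intronic region. The dotted line marks the 2.44 per Mb of all protein-coding genes, and the long neuronal list lies at 0.375.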

How the data were processed

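In ChIP-seq, DNA bound by a protein is pulled down through an antibody against that protein and sequenced. The authors mapped reads to mm10 (the submitters' notes name Bowtie, and the study names bowtie2 for its FAIRE-seq reads, whose handling the ChIP-seq followed) and called regions per library with the one-sample mode of CisGenome, which uses no input library, so mappability and copy number are not corrected. The deposited score is 1000 for every region and was not used. Names hold a region number whose order is not explained. No read counts are given, so depth is unknown. Ends may be inclusive, so lengths are uncertain by 1 bp, and coordinates count from 1. The Etv4 and Etv5 groups were taken from the labels.

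Sequence was read from GRCm38 and genes from GENCODE. Pattern letters on either strand were counted in windows of 500 bp centred on each midpoint, and also in grid windows every 5 kb of eligible intron (weighted by GC bins of 2 points) and in 4287 windows 2 kb from members that touched no region. Octamers were ranked in narrower windows, the central 200 bp of members, against their own set of windows 2 kb away. For shares a window counted once, whereas counts of sites took in every site, also overlapping ones. Members with over 50% of their 36-base words present more than once in the assembly are called mostly multicopy. Gene coverage is the share of the gene's length under regions.

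Genes named in the text are the 12 protein-coding genes with the most members, the 8 with the most per 100 kb among those with 4 or more, and 3 per list; some of these are not reported here. The 20 most covered genes were listed afterwards. Members, lists and patterns were chosen with earlier results of these data known. Mkl1, Cyr61 and Ctgf of the lists were not matched. Functions were tested on simulated data. Intervals came from scipy 1.17.1, word counts from numba 0.67.0, and tables and plots from pandas 2.3.3 and matplotlib 3.10.9, all under Python 3.11.15.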

Additional observations from a re-analysis of the deposited data

How the results depend on the processing

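Of 110 values recomputed under alternatives set out with the design, 95 stayed close to the reported value: shares within its interval, counts within 1.5 times it, and differences with the same sign and the same side of 0 for their interval. Of 12 under alternatives added after seeing the data, 9 did. Members numbered 812 with the longer 50% of the Etv4 list and 1120 with its first regions by number, and their genes 532 and 719. The AP-1 share was then 51.2% and 51.7%. A transcript start distance of 5 kb gave a first-intron share of 34.1%. A window of 200 bp gave ETS, AP-1 and RUNX shares of 4.26%, 28.9% and 15.4%, as a smaller window holds fewer sites. The strict pattern CCGGAAGT gave an ETS share of 1.02% and the loose pattern 81.7%, with a difference from promoter regions of -1.48 points (-3.50 to 0.501). The ETS difference from shared intronic regions changed sign, with an interval holding 0 each time, at -0.057 points with the midpoint rule, -1.07 with the whole region and -0.016 without mostly multicopy regions. Weighted to the members' region numbers, that difference was 2.64 points and the AP-1 difference -3.39 points; the cause was not tested. No paired analysis was possible because no comparison rested on a test and each antibody had a single library. Mostly multicopy members numbered 98, and input DNA and untreated cells were not analysed here. Without depth or replicates, a region absent from the Etv5 list is not shown to lack Etv5.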
